A study of Homo sapiens with 8 samples.

Results

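The genes described here are 10 that encode secreted factors acting on blood vessels: EDN1, ANGPTL4, VEGFA, VEGFB, VEGFC, ANGPT1, THBS1, THBS2, SCG2 and FGF2. They were chosen by name with the 12 h fold changes of these arrays in view, in which EDN1, ANGPTL4 and SCG2 were among the lowest of all probe sets. Their 12 h values and calls are therefore given as a description. Whether each passed the threshold is stated, but no p-value is printed for them. Members were every probe set whose annotation named exactly 1 gene, that gene being on the list. This gave 9 probe sets for 9 genes among 8746 probe sets (7713 named genes) on the 12 h arrays, which had none for ANGPT1, and 19 probe sets for all 10 genes among 22215 probe sets (11963 named genes) on the 6 h arrays. All 9 passed the 12 h filter on dim probe sets, and 17 of the 19 at 6 h were not dim.

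The cells were MRC5, a line of human diploid fibroblasts from lung, grown in medium with serum. Treated cells received 10 µM 8-oxoguanine, the oxidised form of the base guanine, for 12 h (3 arrays) or 6 h (1 array), and mock cells received the solvent alone for 12 h (3 arrays) or 6 h (1 array). Each array reports 1 signal per probe set, on a linear scale, and the 6 h and 12 h samples were read on different array types, so each time was compared with its own mock. The labels describe the 3 arrays of a 12 h group as technical replicates of extracts, so every error and call measures the spread between extracts of 1 line and may be technical.

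As background, endothelin, made by proteolysis from the product of EDN1, constricts vessels through receptors on smooth muscle and other cells. VEGFA is the chief growth factor for blood endothelium, VEGFC acts mainly on lymphatic endothelium, and VEGFB is a weaker relative. FGF2 is a growth factor for fibroblasts and endothelium, ANGPT1 is a ligand that stabilises vessels through the receptor TEK, and the thrombospondins THBS1 and THBS2 are matrix proteins that restrain vessel growth. ANGPTL4 is a secreted inhibitor of lipoprotein lipase, and SCG2 is a granin cleaved to the peptide secretoneurin. Fibroblasts make several of these factors for neighbouring vessels. EDN1 is a textbook target of TGF-beta signalling, and VEGFA and ANGPTL4 of the hypoxia response.

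The promoters shown are those of EDN1 and ANGPTL4, which had the lowest 12 h fold changes of the list, and of THBS2, which had the highest. Each is the 250 bases before a transcription start in RefSeq on GRCh38.p14, read 5′ to 3′ on the gene's strand, and capitals mark the letters searched for. Both strands were searched for 5 short motifs. The core of the hypoxia response element is ACGTG. A SMAD box is written CAGAC. The AP-1 motif searched was TGANTCA, where N is any base. The GATA motif was AGATAA. The TATA box was TATAAA. The EDN1 window is the last of the 3 starts that RefSeq lists for the gene, the one that holds a TATA box, at chr6:12290111-12290360 on the plus strand. That of ANGPTL4 is at chr19:8363905-8364154 on the plus strand, and that of THBS2 at chr6:169253847-169254096 on the minus strand.
EDN1: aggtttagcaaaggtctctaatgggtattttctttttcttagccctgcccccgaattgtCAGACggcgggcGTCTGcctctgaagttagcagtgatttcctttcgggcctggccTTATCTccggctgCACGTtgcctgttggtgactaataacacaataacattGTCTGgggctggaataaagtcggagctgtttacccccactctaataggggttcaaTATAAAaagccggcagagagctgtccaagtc
ANGPTL4: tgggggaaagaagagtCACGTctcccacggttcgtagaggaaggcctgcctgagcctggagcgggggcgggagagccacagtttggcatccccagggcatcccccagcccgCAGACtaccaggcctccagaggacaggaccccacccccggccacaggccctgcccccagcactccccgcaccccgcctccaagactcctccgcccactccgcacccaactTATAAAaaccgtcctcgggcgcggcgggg
THBS2: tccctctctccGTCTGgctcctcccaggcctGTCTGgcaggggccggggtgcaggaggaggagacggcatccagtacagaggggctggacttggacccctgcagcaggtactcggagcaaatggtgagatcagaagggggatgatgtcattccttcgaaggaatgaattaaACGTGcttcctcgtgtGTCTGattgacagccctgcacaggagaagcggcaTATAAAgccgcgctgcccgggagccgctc

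In these windows TATAAA began 31 bases before the start in EDN1 and 29 before it in ANGPTL4 and THBS2, and 10.7% of the 35116 promoter windows of the same length hold it. ACGTG occurred once in each window, beginning 123 bases before the start in EDN1, 234 in ANGPTL4 and 79 in THBS2, against a share of 18.5% of all windows. CAGAC occurred 3 times in EDN1, at 191, 179 and 86 bases, and 3 times in THBS2, at 239, 219 and 63 bases. ANGPTL4 held it once, at 139 bases, and 38.0% of all windows hold it. AGATAA occurred in EDN1 alone of the 3, at 136 bases (9.17% of all windows), and TGANTCA in none of them (6.57% of all windows). Only these exact letters were searched, so the lack of TGANTCA does not cover near forms of the AP-1 motif. EDN1 and ANGPTL4 fell at 12 h and THBS2 rose, and all 3 printed windows carried the hypoxia core, the SMAD box and the TATA box. The EDN1 window shown is the one with a TATA box, so that match was fixed by the choice. It is not to be read against the share of all windows. In the other EDN1 windows the hypoxia core occurred 2 times in the first and not in the second. The SMAD box occurred in both of these and the TATA box in neither. None of the 3 printed windows held a motif that overlapped another. The VEGFC and FGF2 windows, which are 74.0% and 75.2% G and C, held none of the 5 motifs. A match describes the letters and is not evidence of a site in use. Windows were used for 7 of the 10 genes, since none was found for VEGFA and SCG2 and ANGPT1 was left out of the search.

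At 12 h the RNA for the vasoconstrictor, the lipase inhibitor, the granin and the lymphatic growth factor was lower in treated cells. RNA for a vessel-restraining matrix protein was higher, and the arrays do not measure protein. EDN1 was 3.40-fold, ANGPTL4 3.64-fold, SCG2 2.78-fold and VEGFC 1.68-fold lower, and THBS2 1.55-fold higher. Each passed an adjusted p of 0.05 in limma's test over all probe sets kept (n = 3 arrays a group). These calls are a description only, since the genes were picked with this contrast in view. For ANGPTL4 and SCG2, whose treated means lay below the filter limit of 93.9, the probe set passed the filter only through the mock arrays, so their folds depend on signals near or under that limit. VEGFA, VEGFB, FGF2 and THBS1 did not pass. In bulk RNA, fewer cells making a factor and less RNA per cell cannot be told apart. Of the 9 genes, 4 passed in the lower direction, where 6.65% of 5248 probe sets did, and 1 in the higher direction, where 6.59% did. Since that contrast was in view when the genes were picked, nothing is read from these counts. Treated and mock signals did not overlap for 4 genes that were lower and 2 that were higher, against 16.5% and 17.4% of all probe sets kept. The median log2 fold change of the 9 was -0.31, against 0.007 over all 5248.

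EDN1 had signals of 113, 176 and 102 in treated cells, against 436, 418 and 436 in mock cells. The mock arrays were nearly level, with the highest 1.04 times the lowest, while the treated arrays spread 1.73-fold, and the lowest mock signal was still 2.38 times the highest treated one. The means were 130 ± 40.1 in treated and 430 ± 9.99 in mock cells (SD, n = 3 each), a log2 fold change of -1.77 (SE 0.20), the 8th lowest of 5248. All 6 signals lay above 93.9, the signal at the filter limit.

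SCG2 had signals of 108, 57.9 and 93.2 in treated cells, against 252, 247 and 202 in mock cells. The lowest mock array was 1.87 times the highest treated one. The means were 86.4 ± 25.8 in treated and 234 ± 27.5 in mock cells (SD, n = 3 each), and the log2 fold change of -1.48 (SE 0.25) ranked 9th lowest. Of the treated signals, 2 of 3 were under the filter limit. With signals under that limit raised to it before taking logs, a setting chosen after seeing the data, SCG2 was 2.36-fold lower.

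ANGPTL4 had signals of 52.1, 47.7 and 105 in treated cells, against 179, 276 and 254 in mock cells. The groups did not overlap, and the third treated array stood above the other treated arrays in a 2.21-fold spread. The means were 68.3 ± 32.0 in treated and 237 ± 50.9 in mock cells (SD, n = 3 each), with a log2 fold change of -1.86 (SE 0.32), the 6th lowest. Since 2 of the 3 treated signals were under the filter limit, the size of the fall is uncertain. It was 2.38-fold with low signals raised to the limit and 2.79-fold with a constant of 28.9 added to every signal.

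**Figure D1:**
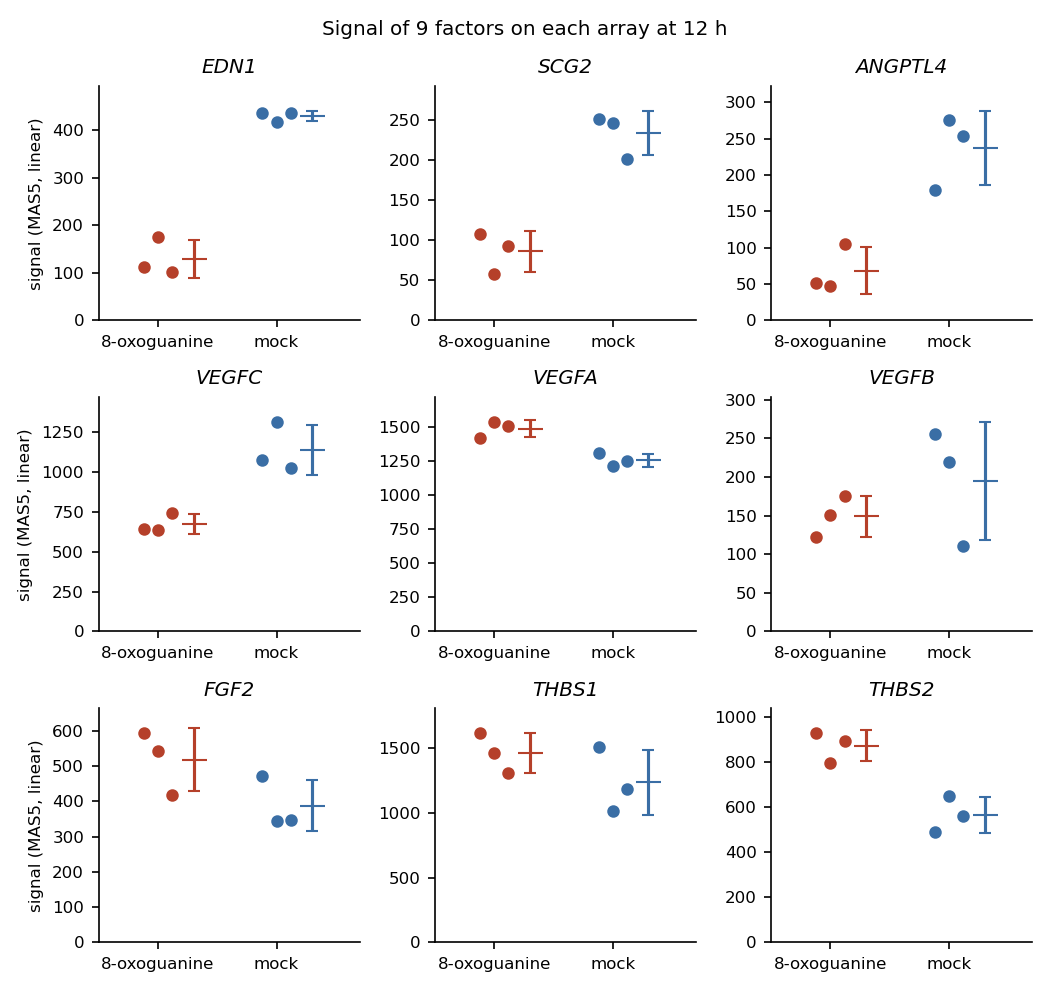
Signal of each of the 9 factors on the 12 h arrays (linear scale from 0, 1 point per array, bar and whiskers the mean and SD of 3 arrays), treated cells left of mock cells. Every treated point lies below every mock point for EDN1, SCG2, ANGPTL4 and VEGFC and above every mock point for VEGFA and THBS2.

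The VEGF genes differed among themselves. VEGFC, the lymphatic factor, had signals of 641, 635 and 744 in treated cells, against 1076, 1311 and 1021 in mock cells. Its groups did not overlap, and it fell with a log2 fold change of -0.75 (SE 0.11). VEGFA had signals of 1422, 1539 and 1513 in treated cells, against 1312, 1217 and 1250 in mock cells. The treated arrays were all higher, but by little, with a 1.08-fold spread within each group and a log2 fold change of 0.24 (SE 0.07) that did not pass the threshold. It did pass with quantile normalization, with the stricter filter and with low signals raised to the limit, at log2 fold changes of 0.25, 0.24 and 0.24. VEGFB had signals of 122, 151 and 175 in treated cells, against 256, 220 and 110 in mock cells. Its groups overlapped because of the third mock array, the lowest of the 6, and the log2 fold change was -0.31 (SE 0.30), which became -0.68 without mock replicate 3 and -0.08 without mock replicate 1. So VEGFC was lower, VEGFA was slightly above mock in every setting run (0.22 to 0.28) but passed the threshold in 3 of 14 alternatives, and VEGFB was not resolved with 3 arrays a group.

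Of the thrombospondins, THBS2 had signals of 927, 794 and 893 in treated cells, against 490, 647 and 558 in mock cells. The lowest treated array was 1.23 times the highest mock array, and THBS2 rose with a log2 fold change of 0.63 (SE 0.11). THBS1 had signals of 1617, 1460 and 1308 in treated cells, against 1511, 1013 and 1187 in mock cells. Its groups overlapped, and the log2 fold change of 0.25 (SE 0.14) did not pass. FGF2, the fibroblast growth factor, had signals of 593, 543 and 419 in treated cells, against 471, 343 and 348 in mock cells. The lowest treated array lay between mock arrays, and the log2 fold change of 0.42 (SE 0.16) did not pass.

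**Figure D2:**
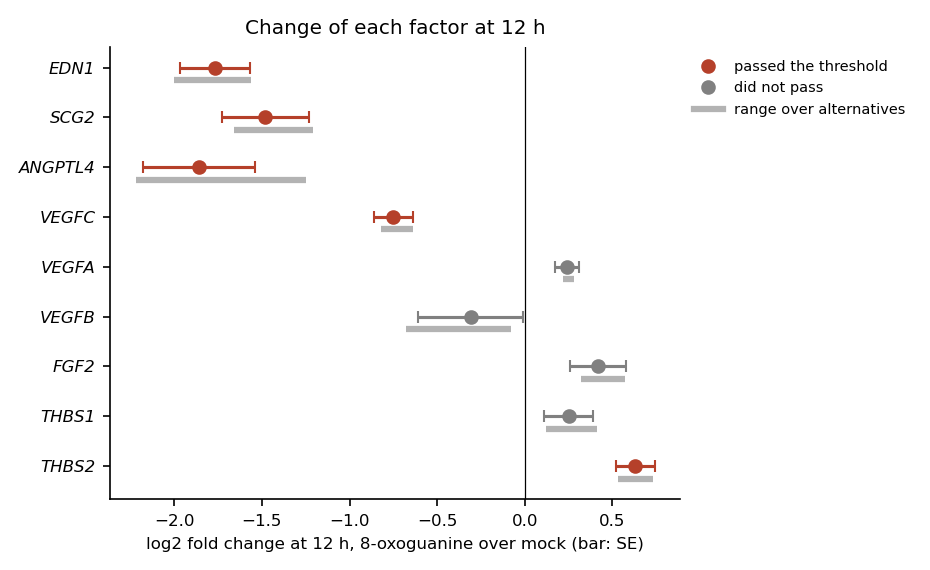
Log2 fold change at 12 h, 8-oxoguanine over mock, of each of the 9 factors (points, whiskers the SE) with the range over the alternative settings (grey bars). The genes that passed the threshold (red) lie at -1.86 to -0.75 and, for THBS2, at 0.63, and no grey bar crosses 0.

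With signals as deposited, EDN1's profile over the 6 arrays was matched most closely, outside the list, by MMP3, a stromal metalloproteinase. The measure was the root-mean-square difference of mean-centred log2 signals over the 6 arrays, and it was 0.18 for MMP3, 0.26 for ID1, an inhibitor of helix-loop-helix transcription factors, and 0.35 for CDC6, a replication licensing factor. PLAT, the tissue plasminogen activator, and NPTX1, a pentraxin, followed at 0.36 each. MMP3 had signals of 64.5, 103 and 59.3 in treated cells, against 328, 319 and 305 in mock cells. Of its treated signals, 2 of 3 were under the filter limit, so it too passed the filter only through the mock arrays. With low signals raised to the limit, as chosen after seeing the data, MMP3 at 0.20 and ID1 at 0.26 were still the nearest, while CDC6 became the 8th nearest at 0.38 and GINS2, a subunit of the replicative helicase, the 3rd at 0.31. Within the list the nearest to EDN1 were SCG2 at 0.54 and ANGPTL4 and VEGFC at 0.60 each, or 0.39, 0.43 and 0.60 with low signals raised. The measure is not scaled for the size of a change, so it favours genes with a fall like that of EDN1. The members were picked with the 12 h fold changes in view, so nothing is read from their nearness.

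Further genes of the same pathways were drawn from a list of 95 that leaves out the 10, chosen with earlier results of these data known. The calls and adjusted p-values of these genes, here and below, are therefore also a description only. Of 81 on the 12 h arrays, 51 had a probe set past the filter, of which 4 fell, 9 rose and 38 did not pass, with a median log2 fold change of 0.08 against 0.007 over all probe sets. The shares of all probe sets that fell or rose, 6.65% and 6.59%, are given above. Of 21 other ligands measured, 2 fell and 2 rose. SEMA3A, a semaphorin that repels endothelial and nerve cells, fell by 0.43 (SE 0.11, limma adjusted p = 0.0268), and CCN1, a matrix-bound angiogenic protein, fell by 0.34 (SE 0.08, limma adjusted p = 0.0229). SERPINF1, which encodes the antiangiogenic protein PEDF, rose by 0.63 on the log2 scale (SE 0.08, limma adjusted p = 0.00127), with signals of 1054, 1067 and 1102 in treated cells, against 704, 645 and 736 in mock cells. PDGFD, a ligand of PDGF receptors, rose by 0.65 (SE 0.15, limma adjusted p = 0.0199). ADM, or adrenomedullin, a vasodilator peptide and hypoxia target, had a log2 fold change of 0.21 (SE 0.09) and did not pass.

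Among enzymes that process or break down these peptides, ECE1, which makes endothelin from its precursor, had signals of 513, 527 and 553 in treated cells, against 528, 462 and 551 in mock cells, and did not pass. MME, the membrane protease neprilysin, which degrades endothelin among other peptides, had signals of 455, 466 and 452 in treated cells, against 147, 170 and 167 in mock cells. It rose by 1.51 (SE 0.12, limma adjusted p = 8.5e-05), with all treated arrays at least 2.66 times the highest mock array. ADAMTS1, a protease with antiangiogenic activity, rose by 0.47 (SE 0.06, limma adjusted p = 0.0016), and the other 6 of 8 in this group did not pass. Of 5 other vasoactive products, PTGS2 and PTGS1, the cyclooxygenases that start prostaglandin synthesis, fell by 1.04 (SE 0.18, limma adjusted p = 0.00593) and by 0.31 (SE 0.07, limma adjusted p = 0.0199). PTGIS, prostacyclin synthase, rose by 0.55 (SE 0.12, limma adjusted p = 0.0137). HMOX1, heme oxygenase, which releases carbon monoxide, rose by 1.09 (SE 0.10, limma adjusted p = 0.000187). AGT, angiotensinogen, was the one that did not pass.

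Of 9 receptors measured, PDGFRA, a PDGF receptor, rose by 0.36 (SE 0.08, limma adjusted p = 0.022), PDGFRB, its relative, rose by 0.30 (SE 0.08, limma adjusted p = 0.0446) and 7 did not pass. NRP1, a coreceptor of VEGFA, had signals of 792 ± 65.8 in treated and 805 ± 84.6 in mock cells (SD, n = 3 each), and FGFR1, the receptor that binds FGF2, had 1513 ± 37.4 in treated and 1321 ± 75.4 in mock cells, and neither passed. The endothelial receptors FLT1, KDR, FLT4, TEK and TIE1 and the endothelin receptor EDNRB were under the filter limit, with mean signals of 3.30 to 91.0 in treated and 3.46 to 80.7 in mock cells. At 6 h the same EDNRB probe set was not dim, with 126 on the treated and 195 on the mock array (-0.63). Its other probe sets were dim, at -0.79 and 0.44. EDNRA, also on the list of receptors, had no probe set naming it alone on either array type, so it was not measured. Of 8 measured genes of transcription control, EPAS1, a hypoxia-inducible factor subunit, rose by 0.49 (SE 0.09, limma adjusted p = 0.00657). HIF1A (0.27, SE 0.08), PPARD, a lipid-activated nuclear receptor (0.43, SE 0.13), and SMAD3, a TGF-beta effector (0.08, SE 0.10), did not pass. EPAS1, SERPINF1, MME, HMOX1, PTGS2 and ADAMTS1 passed in all 6 fits that left out 1 array. The other 7 of the 13 lost the call in at least 1 of those fits, among them PDGFRB, which kept it in 1 of 6 and in 6 of all 14 alternatives: 1 gene fell without 8-oxoguanine replicate 2 or mock replicate 1, 2 fell without 8-oxoguanine replicate 3 or mock replicate 3, and 5 rose without 8-oxoguanine replicate 2.

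**Figure D3:**
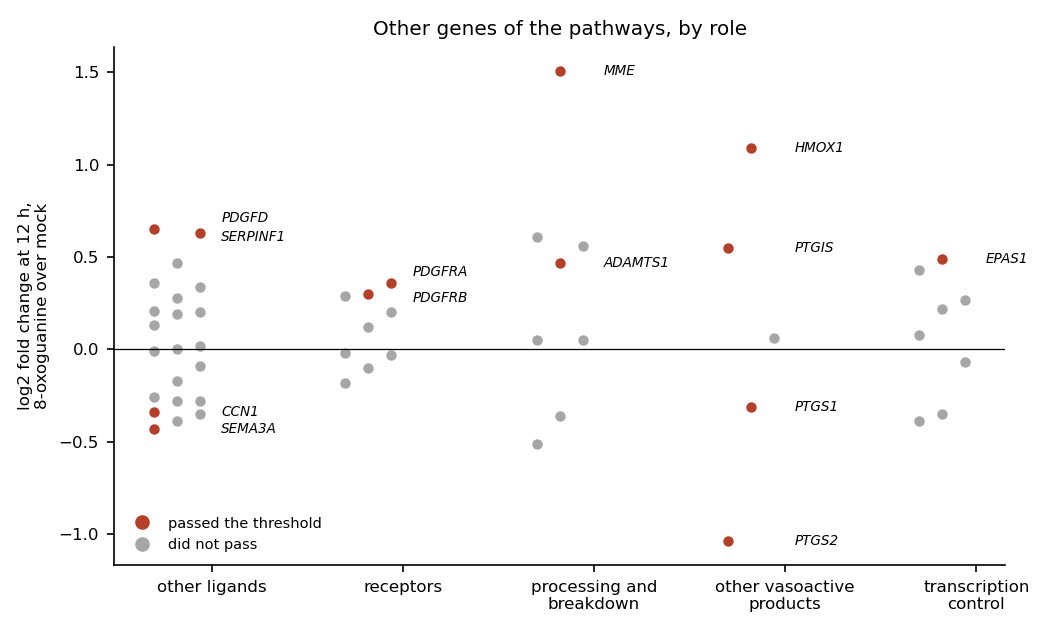
Log2 fold change at 12 h, 8-oxoguanine over mock, of the measured genes of the wider pathways, 1 point per probe set, in columns by role, with names for those that passed the threshold (red). MME at 1.51 and HMOX1 at 1.09 are the highest points and PTGS2 at -1.04 the lowest, and no receptor that passed lies below 0.

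A single array was read per treatment at 6 h, which allows no test and no check between replicates. The ratios of the 19 probe sets, treated over mock, ran from -0.85 to 0.84 on the log2 scale, 11 below and 8 above 0. Of the 17 that were not dim, 1 was 1.5-fold or more lower, against 5.44% of 11108 probe sets kept, and 1 was 1.5-fold or more higher, against 3.32%. Their median log2 ratio was -0.06, against -0.032 over all kept. The bright end of the treated array was stretched, with a median log2 ratio of 0.18 over 1885 probe sets that passed a signal of 2000 in treated or mock cells. Centring on the medians moved every ratio up by 0.12, and 6 of the 19 ratios changed sign under at least 1 of 3 other settings, so small ratios have no settled direction.

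EDN1 had a 6 h signal of 236 on the treated array, against 253 on the mock array. Its log2 ratio of -0.10 became 0.01 with median centring. VEGFC had 1119 on the treated array, against 1331 on the mock array (-0.25). SCG2 had 74.9 on the treated array, against 135 on the mock array (-0.85), both under the dim limit of 148. ANGPTL4, also dim, had 124 on the treated array, against 103 on the mock array. Its log2 ratio of 0.27 lay between 0.23 and 0.38 in the other settings. THBS2 had 786 on the treated array, against 759 on the mock array (0.05). So at 6 h the treated and mock signals of EDN1 and THBS2 were within 1.07-fold, and the SCG2 ratio had the sign of its 12 h change while that of ANGPTL4 had the opposite one. The exposure, the kind of array and the replication all differ between the 6 h and 12 h comparisons, so no test was made between them.

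Genes with several probe sets at 6 h show how far a single one can stray. For THBS1, the probe set that the 12 h arrays also carry had 2168 on the treated array, against 3916 on the mock array (-0.85). The other 4 probe sets of THBS1 had ratios of 0.03, 0.22, 0.23 and 0.20. At 12 h the outlying probe set had a log2 fold change of 0.25, which did not pass. For VEGFA, a probe set absent from the 12 h arrays had 919 on the treated array, against 513 on the mock array (0.84), while the other 3 had -0.06, -0.02 and 0.15. The VEGFA probe set that the 12 h arrays carry had 2464 on the treated array, against 2576 on the mock array.

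ANGPT1, the TEK ligand, was measured at 6 h only. Its probe sets had 640 and 827 on the treated array, against 876 and 871 on the mock array, log2 ratios of -0.45 and -0.08. FGF2 had 628 and 660 on the treated array, against 829 and 706 on the mock array, log2 ratios of -0.40 and -0.10. The ratio of -0.10 became 0.02 with median centring. The probe set with -0.40 is the one on the 12 h arrays, where its log2 fold change was 0.42 and did not pass. VEGFB had 352 on the treated array, against 413 on the mock array (-0.23). In the wider list, 49 genes were measured at 6 h with a median log2 ratio of 0.06, 3 of them 1.5-fold or more lower and 4 higher, by the brightest probe set of each gene. Over all probe sets kept the median was -0.032, with 5.44% lower and 3.32% higher by that fold. MME, higher at 12 h, had 556 on the treated array, against 857 on the mock array at 6 h (-0.62), and its other probe set had -0.59. HMOX1 had 372 on the treated array, against 358 on the mock array (0.05).

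**Figure D4:**
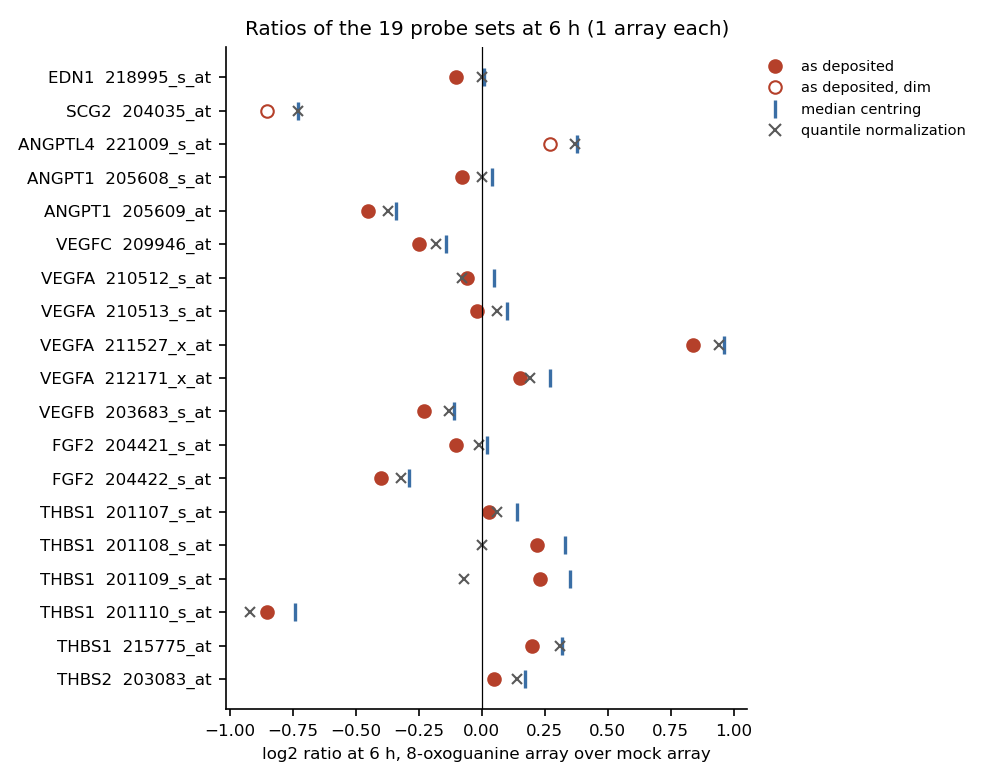
Log2 ratio at 6 h of the treated over the mock array for the 19 probe sets (circles, open where dim), with the ratio after median centring (ticks) and quantile normalization (crosses). The THBS1 probe set at -0.85 and the VEGFA probe set at 0.84 stand away from the other probe sets of their genes in every setting shown.

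The arrays had a mean signal, without the lowest and highest 2%, of 500.1 to 500.5 and medians of 143 to 165. The cells carried the markers of fibroblasts, all 8 of 8 measured at 12 h above the filter limit, with a summed signal of 60287 to 74269 in treated and 61517 to 74828 in mock cells. Of those, LUM, the proteoglycan lumican, rose by 1.07 on the log2 scale (SE 0.17, limma adjusted p = 0.0034) and S100A4, a calcium-binding protein, fell by 0.58 (SE 0.09, limma adjusted p = 0.00302). Of 7 endothelial markers, 6 were under the limit and PECAM1 above it, with sums of 235 to 278 in treated and 254 to 296 in mock cells. Of 6 epithelial markers, CDH1 and EPCAM were under the limit and KRT8, KRT18, KRT19 and SFTPC above it. KRT19, a keratin, fell by 1.27 (SE 0.17, limma adjusted p = 0.00145), and no other epithelial marker passed the threshold. The summed epithelial signal was 4268 to 4581 in treated and 4085 to 4330 in mock cells. Of 4 smooth muscle markers, DES and MYH11 were under the limit and ACTA2 and CNN1 above it, and their summed signal did not overlap, at 4538 to 4803 in treated and 4295 to 4468 in mock cells. Of 5 blood markers, CD3E and HBB were above the limit, with sums of 445 to 511 in treated and 368 to 525 in mock cells. No smooth muscle or blood marker passed the threshold of the 12 h test. At 6 h the highest signal was 22762 on the treated and 10699 on the mock array. Sums of linear signals weigh the brightest probe sets most. The summed signals were higher on the treated array for all 5 cell types. The part of the stretched bright end in this was not tested. The sums were 103172 on the treated and 56798 on the mock array for the 10 fibroblast markers measured at 6 h. They were 8835 on the treated and 7084 on the mock array for smooth muscle markers, and 3777 on the treated and 2828 on the mock array for epithelial markers. The endothelial sums were 283 on the treated and 257 on the mock array, with all 7 markers dim, and the blood sums were 347 on the treated and 281 on the mock array. The part of these markers in the results was not tested. The ratio of actin signals from the 3′ and 5′ ends of the message, a sign of RNA quality, was 0.999 to 1.07 on the treated and 0.889 to 0.995 on the mock arrays at 12 h, and its part in the changes above was not tested. The GAPDH ratio overlapped, at 0.802 to 0.843 on the treated and 0.779 to 0.826 on the mock arrays.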

How the data were processed

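RNA of each sample was read on its own single-colour oligonucleotide array. The authors deposited 1 linear intensity for each probe set. Per the submitters' processing notes the tool was MAS5, with version and settings not given in the sources used here. Groups follow the agent and time labels. The treatment protocol names 6 h throughout, and the time label was followed. Scanner files and detection calls were not used.

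Intensities were used as log2 values without rescaling. Left out were control probe sets and 12 h probe sets with a mean log2 value below the 40th percentile (a signal of 93.9). At 6 h, dim means below the 50th percentile. Treated and mock arrays at 12 h were fitted in limma 3.58.1, run in R 4.3.3 (eBayes after lmFit, its prior following the mean intensity). Tests were two-sided and adjusted by Benjamini-Hochberg over 5248 probe sets, with the threshold at 0.05 and the number of arrays limiting precision. The fit was tested on simulated data. Gene names came from the platform annotation and, at 12 h, covered 7840 probe sets with 1 symbol, 388 with several and 518 with none, and at 6 h 19064, 1043 and 2108. None changed against RefSeq. Promoters came from a RefSeq table of GRCh38.p14, which the arrays do not name as a build.

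The members, the wider list and the motifs were chosen with earlier results of these data known. Text names every member, the 12 wider-list genes with the largest changes among those past the threshold, the 5 probe sets nearest to EDN1 and called markers. Other genes of the wider list were named after their values were seen. Other settings tried were quantile normalization, median centring, a 60th percentile filter, no filter, the 20th percentile of signals added before log2 (28.9 at 12 h, 18.8 at 6 h), no intensity trend, a replicate block and leaving out each array.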

Additional observations from a re-analysis of the deposited data

Results flagged for a closer look

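ANGPTL4 stood out because its 6 h log2 ratio of 0.27 was above 0 while all 3 treated arrays lay below all 3 mock arrays at 12 h. The 6 h signals, 124 on the treated and 103 on the mock array, were both dim. The difference from 12 h was not tested.

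VEGFA, by the probe set on both array types, stood out for the reverse, with a 6 h log2 ratio of -0.06 while every treated array lay above every mock array at 12 h. The 6 h sign turned to 0.05 with median centring, and the difference was not tested.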

How the results depend on the processing

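The calls of EDN1, ANGPTL4, SCG2, VEGFC and THBS2 and the signs of all 9 members held in every alternative in which the probe set was kept (13 or 14 each, among them the 6 fits that left out 1 array, with 4 lower and 1 higher in each). The members were picked with the 12 h contrast in view, so a call that holds is still only a description. With the 60th percentile filter, which leaves out EDN1, ANGPTL4, SCG2 and VEGFB, 1 member was lower. With that filter, with quantile normalization and with low signals raised to the filter limit, 2 were higher, VEGFA being added. ANGPTL4 ranged over log2 fold changes of -2.22 to -1.25, EDN1 over -2.00 to -1.56, SCG2 over -1.66 to -1.21, VEGFC over -0.82 to -0.64 and THBS2 over 0.53 to 0.73. In the wider list, 1 gene was lower without the intensity trend, against 4 with it, and the fits without 1 array gave 1 to 6 lower and 5 to 10 higher.

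The deviations of same-numbered 12 h arrays had correlations of r = 0.0757, -0.149 and -0.0503 across probe sets. Between arrays of unlike numbers r ran from -0.184 to 0.201, the highest for 8-oxoguanine replicate 3 with mock replicate 2. With 3 arrays a group these values cannot show whether any arrays were paired or shared a batch, which was not tested. With the replicate block, 4 members were lower and 1 higher, and 4 and 8 genes of the wider list. At 6 h, 1 array a group sets the limit: 6 of 19 ratios changed sign in at least 1 of 3 alternatives. The raised signals were a setting chosen after seeing the data. Signals of ANGPTL4 and SCG2 near the filter limit limit the size of their falls.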

Other observations

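Of the genes in the wider list that do not act as ligands, the endothelin-degrading MME and the endothelin-making ECE1 gave unlike values at 12 h, with 458 ± 7.56 in treated and 161 ± 12.4 in mock cells for MME (SD, n = 3 each), and a log2 fold change of 0.05 (SE 0.10) for ECE1. NRG1, a ligand of ERBB receptors, had 56.4 ± 21.2 in treated and 160 ± 60.2 in mock cells (SD, n = 3 each), but its mean log2 value was under the filter limit and it was not tested. NOS3, the endothelial nitric oxide synthase, was dimmer still and also not tested, with 18.0 ± 11.3 in treated and 53.5 ± 16.2 in mock cells (SD, n = 3 each). Both were named after their values were seen, and other dim genes of the list differed the other way. PTN, for 1, had 95.0 ± 45.8 in treated and 58.0 ± 35.8 in mock cells. At 6 h the same probe sets, again dim, had 17.7 on the treated and 4.44 on the mock array for NOS3. For NRG1 they had 67.4 on the treated and 69.2 on the mock array, and for PTN 46.5 on the treated and 96.8 on the mock array. The other PTN probe sets, absent from the 12 h arrays, were not dim at 6 h. Their log2 ratios were -0.61, -0.20 and -0.18.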
